A study of Homo sapiens with 4 samples.

Results

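The 5S rRNA genes were examined in the peaks of FSCN1, the actin-bundling protein fascin, in A549 cells, an established human lung adenocarcinoma line. Peaks were taken on either strand where they overlapped, or were assigned to, RNA5S6, RNA5S7, RNA5S8, RNA5S10, RNA5S11, RNA5S12 or the pseudogene RNA5SP74. These 7 genes were chosen by their peaks in the same lists, so that the presence of a peak is a description here and not a finding. They are 6 of the 17 annotated 5S genes of the tandem cluster on chromosome 1 and 1 of 504 annotated RNA5SP pseudogenes. FSCN1 IP replicate 1 held 8 such peaks among 181 (4.42%), and replicate 2 held 6 among 238 (2.52%), which makes 14 of 419 in all.

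In iRIP-seq, cells are irradiated with ultraviolet light (here 400 mJ/cm2) so that RNA is crosslinked to protein, the RNA is digested, and the RNA recovered with the precipitated protein is sequenced. The study had 2 IP samples and 2 input samples, all of untreated A549 cells as far as the labels go, with 1 input marked as a plasmid sample. The input was not analysed here, so no enrichment over input was computed. The labels and a legend of the paper name a FLAG antibody, whereas its methods name an antibody against FSCN1, and the labels give the molecule as polyA RNA, a class to which mature 5S rRNA does not belong. A listed peak is made of 50-bp bins on 1 strand with a mean number of read tags per bin, which is not scaled to library size.

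5S rRNA is the smallest RNA of the large ribosomal subunit. It is made by RNA polymerase III from a promoter that lies inside the gene, where transcription factor IIIA binds, and transcription ends in a run of T. The finished RNA is carried into the ribosome with the proteins RPL5 and RPL11, and the same particle can bind MDM2, the ligase that controls p53, when it is not built into ribosomes. The genes stand in a tandem array of near-identical units, and many pseudogenes are scattered over the genome.

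The 17 genes of the cluster lay on the minus strand of GRCh38 at chr1:228610266-228646158, with neighbouring starts 2215 to 2242 bp apart, and RNA ends were taken from the RefSeq annotation. In 16 of them the RNA was identical over its whole length, and this sequence occurred 16 times in the chromosomes of GRCh38. The other copy, RNA5S9, was identical to them at 99.2% of its bases.

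RNA5SP74 was the only member with another sequence. It lies outside the cluster at chr1:204562413-204562521, also on the minus strand, and is annotated with 109 bases. Aligned to RNA5S7 it carried 3 substitutions and lacked 10 bases, which left 106 of 119 aligned positions identical (89.1%).

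All peaks lay in the 3′ part of their RNA. The 14 peaks fell on 7 distinct bins, 1 for each member, and no bin held the first base of an RNA or any base before position 66. In 6 of the 7 bins the last base of the RNA was included, and the exception was RNA5S6. The number of RNA bases inside a peak ranged from 13 to 50, with a median of 37 over the 14 peaks, and the rest of each bin lay after the 3′ end.

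In RNA5S6 the bin at chr1:228621451-228621500 covered bases 66 to 115 and lay wholly inside the RNA. In RNA5S7 (chr1:228623651-228623700) it reached from base 86 to the last base of the RNA and 14 bases further. In RNA5S8 (chr1:228625901-228625950) it reached from base 78 to the last base and 6 bases further. The overlap became shorter in RNA5S12 (chr1:228634851-228634900), where it began at base 90 and ran 18 bases beyond the RNA, and in RNA5S11 (chr1:228632601-228632650), where it began at base 100 and ran 28 bases beyond. RNA5S10 (chr1:228630351-228630400) had the shortest overlap, with the last 13 bases, or 10.7% of the RNA, and 37 bases after it. The bin of RNA5SP74 (chr1:204562401-204562450) covered its bases 72 to 109, which align to bases 82 to 119 of RNA5S7, and 12 bases after the annotated end. The bins follow a fixed grid of 50 bp, and the genes fall at different places on that grid.

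**Figure D1:**
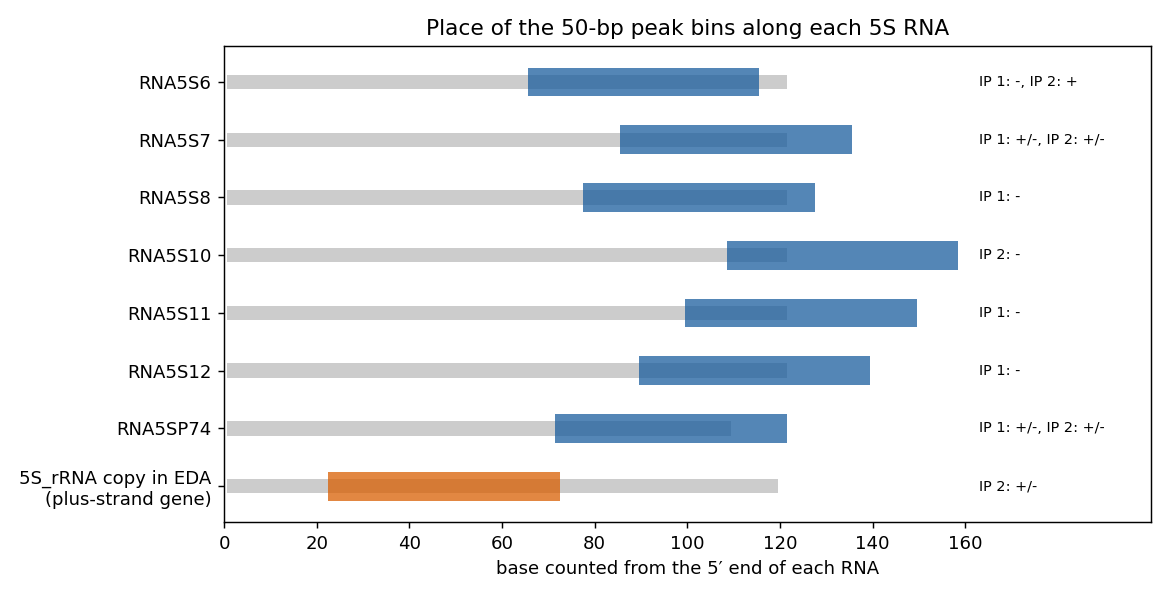
Bars along the x axis give bases counted from the 5′ end of each RNA, with the annotated RNA in grey and the 50-bp peak bin in colour, and the text at the right gives the strands with a peak in each FSCN1 IP replicate. The 7 bins of minus-strand genes start at base 66 or later, while the bin of the plus-strand copy in EDA covers bases 23 to 72.

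Runs of at least 4 T on the strand of the gene, where RNA polymerase III is known to stop, were searched at and after the RNA end. In each cluster copy the first run spanned bases 119 to 123, 5 T long, and so began inside the RNA and ended 2 bases after it. A second run of 5 T lay 10 to 14 bases after the RNA. The first run lay inside the peak of 6 of the 7 members, with RNA5S6 as the exception, and the second run inside the peaks of RNA5S7, RNA5S10, RNA5S11 and RNA5S12. The peak of RNA5S10 alone also held the third run, 28 to 31 bases after the RNA. These matches describe the sequence only.

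With both strands summed, RNA5S7 had the most listed tags of the cluster copies in each replicate; on the strand of the gene, RNA5S8 and RNA5S11 had more in replicate 1. In replicate 1 it had 17 tags on the plus strand, opposite to the gene (exact Poisson 95% interval 9.90 to 27.2), and 9 tags on the strand of the gene (interval 4.12 to 17.1). Replicate 2 gave 9 tags on the plus strand (interval 4.12 to 17.1) and 8 on the minus strand (interval 3.45 to 15.8). The 4 intervals overlap, and the differences between strands and replicates were not tested. The peak of 17 tags ranked 37 in a list of 181 and was the tallest of the 14 peaks, and it lay on the strand that is not transcribed into 5S rRNA.

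RNA5SP74 also had peaks on both strands in both replicates. In replicate 1 the plus strand held 8 tags (interval 3.45 to 15.8) and the minus strand 10 (interval 4.80 to 18.4). Replicate 2 had 10 tags on the plus strand (interval 4.80 to 18.4) and 12 on the minus strand (interval 6.2 to 21), which was the tallest 5S peak of that list and ranked 53 of 238. Summed over the strands, the pseudogene had 18 tags in replicate 1 and 22 in replicate 2, against 26 and 17 at RNA5S7. The order of these genes by their sums therefore differed between the replicates.

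The other copies had a peak on 1 strand at most in each replicate. RNA5S6 had a minus-strand peak of 7 tags (interval 2.81 to 14.4) in replicate 1 and a plus-strand peak of 6 tags (interval 2.20 to 13.1) in replicate 2, so that the same bin was listed on opposite strands. RNA5S8 had 12 tags (interval 6.2 to 21), RNA5S11 had 10 (interval 4.80 to 18.4) and RNA5S12 had 8 (interval 3.45 to 15.8), all on the minus strand of replicate 1 and with no peak in replicate 2. RNA5S10 had 6 tags on the minus strand of replicate 2 (interval 2.20 to 13.1) and no peak in replicate 1. No listed peak had fewer than 7 tags (replicate 1) or 6 tags (replicate 2), so RNA5S6 in each replicate and RNA5S10 in replicate 2 stood at the lower limit of their list. The paper also describes the input as the background against which peaks were selected. Tags at a copy without a peak are not known, and for these copies no difference between replicates could be shown.

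**Figure D2:**
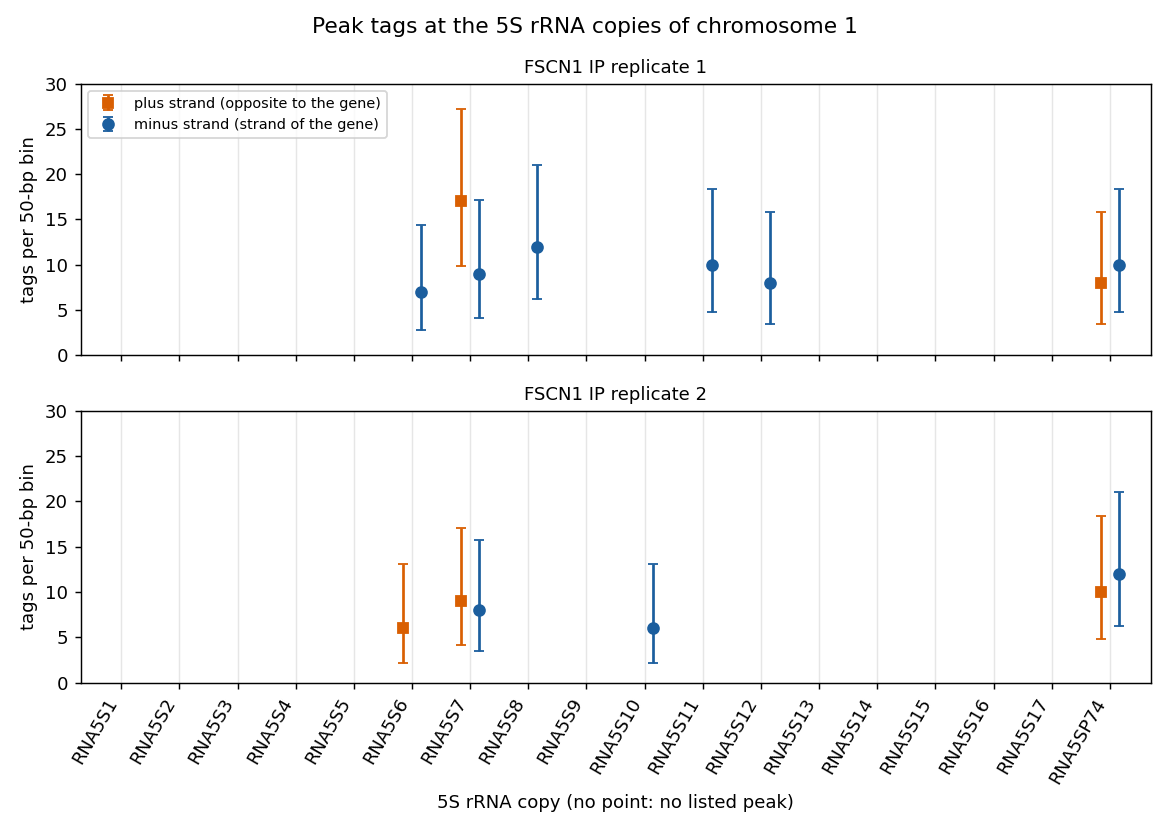
Tags per 50-bp bin (y axis) at each 5S copy of chromosome 1 in cluster order, with RNA5SP74 last, for FSCN1 IP replicate 1 (top) and 2 (bottom); error bars are exact Poisson 95% intervals, and a copy without a point had no listed peak. Only RNA5S7 and RNA5SP74 have points on both strands in both replicates.

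Replicate 1 had peaks at 6 members and replicate 2 at 4, and 3 members, RNA5S6, RNA5S7 and RNA5SP74, had a peak in both. On the same strand, 2 positions were shared between the replicates, those of RNA5S7 and RNA5SP74, each on both strands. Peaks on the strand of the gene numbered 6 of 8 in replicate 1 and 3 of 6 in replicate 2, against 48.3% and 52.5% of all peaks with a gene. Every member had a peak on the strand of the gene in at least 1 replicate.

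The p-value that the authors' caller gave each peak followed the tags. Among single-bin peaks of up to 17 tags, each number of tags had 1 p-value per replicate and strand. Among the 14 5S peaks it was lowest at the plus-strand peak of RNA5S7 in replicate 1, at 8.27e-15, and in replicate 2 at the minus-strand peak of RNA5SP74, at 1.23e-12. With 6 tags each in replicate 2, RNA5S6 was listed at 0.00846 on the plus strand and RNA5S10 at 6.29e-06 on the minus strand. So large a gap between the strands was found at the lowest number of tags of each list, and at 7 tags in replicate 2 the values were 1.29e-06 and 5.5e-07.

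The remaining 11 genes of the cluster, RNA5S1 to RNA5S5, RNA5S9 and RNA5S13 to RNA5S17, had no peak on either strand in either replicate. All 10 peaks inside the cluster overlapped a gene by at least 1 bp, and 0 peaks lay wholly in the spacers between the genes. The bins of RNA5S10 and RNA5S11 nevertheless lay mostly in a spacer, with 37 and 28 of their 50 bases after the RNA. The nearest listed peak outside the members on chromosome 1 was at RPS27, a ribosomal protein gene, 74.6 Mb from the cluster and 50.6 Mb from RNA5SP74.

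Since the authors kept unique alignments, every window of 150 bases, the read length, that touched a 5S RNA was counted over both strands of the 25 chromosome sequences of GRCh38. Of 199 windows that touched the peak at each of RNA5S6, RNA5S7, RNA5S8, RNA5S10, RNA5S11 and RNA5S12, 0 occurred just once, with a median of 16 occurrences per window. At RNA5SP74 all 199 windows occurred once. Thus 10 of the 14 peaks (71.4%), the peaks of the cluster, had no sequence of read length that belongs to 1 copy alone, and the 4 peaks of RNA5SP74 had nothing else. The numbers of peaks without a unique window were the same for windows of 50 and 100 bases.

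The only cluster copy with unique windows over its RNA was RNA5S9, which had no peak. Of the 270 windows over RNA5S9, 150 (55.6%) occurred once, against 0 of 270 at each of the other 16 copies. With the flanks included, a unique window was found within 1100 bases of 5 of the 6 copies with a peak and of 6 of the 11 copies without one. At RNA5S9 it overlapped the RNA itself. Among the other copies it was nearest at RNA5S14 (153 bases away, no peak) and RNA5S11 (155 bases), followed by RNA5S12 (221 bases) and RNA5S6 (229 bases downstream). RNA5S7, the copy with peaks on both strands in both replicates, was counted only through 3 windows, the nearest 1099 bases away, and RNA5S10 had none. How read pairs were placed among equal copies, and how long the fragments were, is not given in the sources used here, so a peak at a named copy of the cluster gives the copy to which reads were placed, and the identical copies cannot be told apart.

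**Figure D3:**
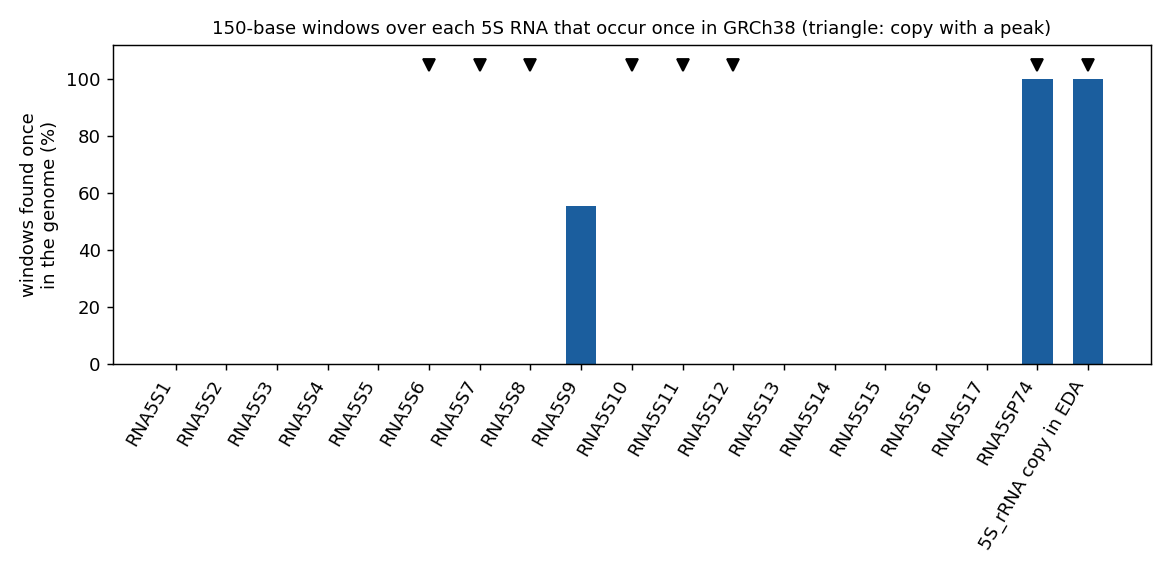
Percent of the 150-base windows touching each 5S RNA that occur once in the GRCh38 chromosomes (y axis), for the 17 cluster genes, RNA5SP74 and the 5S copy in EDA; triangles mark copies with a peak in either replicate. Among the cluster genes only RNA5S9 is above 0, at 55.6%, and it carries no triangle.

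Outside the members, the only other annotated 5S copy with a peak was a 5S_rRNA pseudogene (ENSG00000285776.1) at chrX:69672479-69672597, on the plus strand within an intron of EDA, the gene of the signalling protein ectodysplasin A. This 5S copy thus lies on the opposite strand to the 7 members. Its bin at chrX:69672501-69672550 held plus-strand and minus-strand peaks of 8 tags each (interval 3.45 to 15.8) in replicate 2 only. The RNA was identical to RNA5S7 at 114 of 119 positions (95.8%), and all 199 windows at the peak were unique. The bin covered bases 23 to 72 of this RNA, across its middle, and did not reach its 3′ end as 6 of the 7 members’ bins did. A search of the 280 distinct regions of both lists, with 50 bp on either side, for at least 40 bp with 85% identity to 5S rRNA found 8 regions. These were the 7 members and the copy in EDA, and 0 regions without a 5S annotation.

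On the genome axis the members and the copy in EDA were alike. All 7 bins of the minus-strand 5S genes had their centre on the low-coordinate side of the middle of the gene, and so had the bin of the plus-strand copy in EDA. Among single-bin peaks at other annotated RNA genes of at most 350 bp (rRNA, snRNA, snoRNA and scaRNA genes), 11 of 13 bins lay on the low-coordinate side. They were 6 of 7 bins at plus-strand genes, which is the 5′ side there, and 5 of 6 at minus-strand genes, which is the 3′ side. The exceptions were a bin of RNA5-8SN3 and the bin of SNORA10, an H/ACA snoRNA. Several of the 13 bins lay at repeated copies of the same RNA, such as RNA5-8SN1 and RNA5-8SN3 or the U2 snRNA genes, and are not independent cases. How the caller assigned a read to a bin is not given in the sources used here, and its part in the 3′ place of the 5S peaks was not tested.

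**Figure D4:**
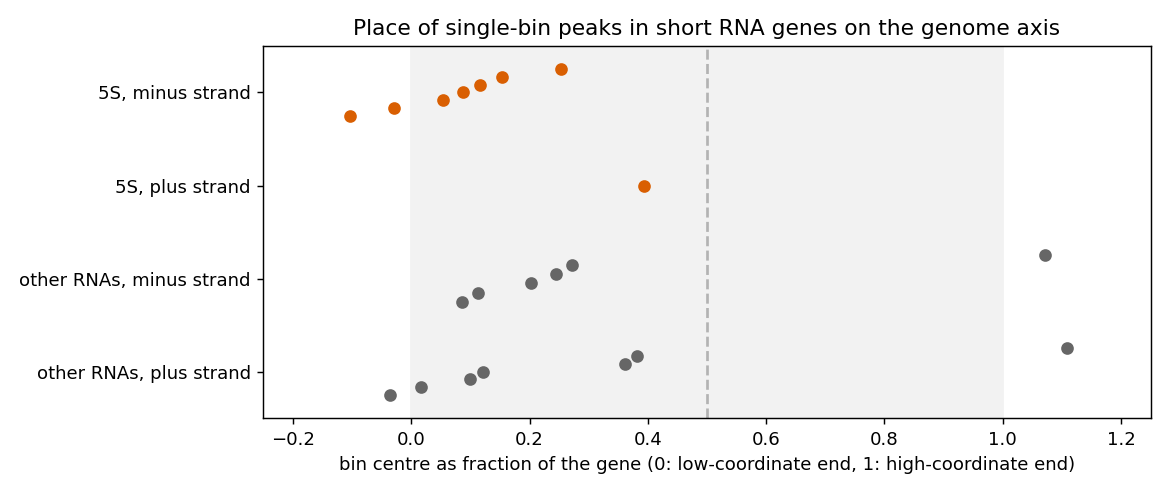
Centre of each single-bin peak as a fraction of the gene from its low-coordinate end (0) to its high-coordinate end (1) on the x axis, with 1 point per bin and gene and the rows split by family and gene strand. All 8 points of 5S genes and 11 of the 13 points of other short RNA genes lie left of the dashed line at the middle of the gene.

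Compared with the rest of the lists, 5S peaks were of ordinary height. They had a median of 9.5 tags (7 to 17) in replicate 1 and of 8.5 (6 to 12) in replicate 2, while the medians of all peaks were 9 and 8. Peaks in the 45S rRNA units of chromosome 21, the precursors of the other rRNAs, had medians of 16 and 12 tags and reached 151 and 159.5. U2 snRNA genes had 0 peaks in replicate 1 and 6 in replicate 2, with a median of 73.25. The 5S peaks held 3.03% of the listed tags in replicate 1 and 1.27% in replicate 2, against 35.8% and 35.5% for the 45S units. These values are a description, since the peaks of neither family were chosen independently of the tags.

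**Figure D5:**
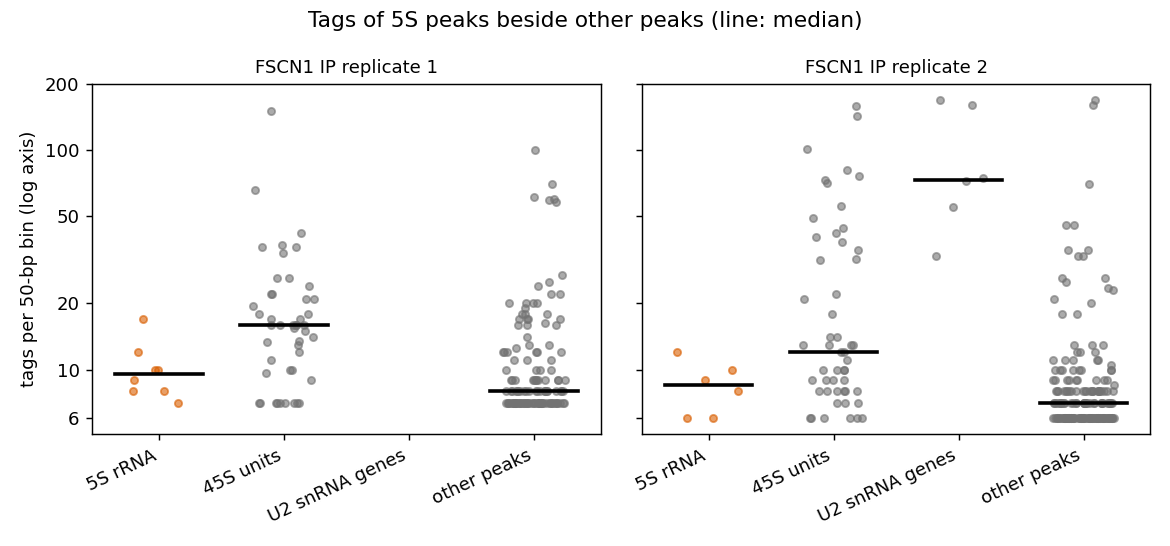
Tags per 50-bp bin on a log axis for each peak of FSCN1 IP replicate 1 (left) and 2 (right), split into 5S rRNA, 45S units of chromosome 21, U2 snRNA genes and other peaks, with lines at the medians. The 5S points stay between 6 and 17 tags, whereas the 45S units reach 151 and 159.5.

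A peak over the identical region of the opposite strand was listed for 4 of 8 5S peaks in replicate 1 (50.0%, Wilson 95% interval 21.5 to 78.5) and 4 of 6 in replicate 2 (66.7%, interval 30.0 to 90.3). Among the peaks outside 5S genes the shares were 50.9% and 50.0%, and among those of the 45S units 21.7% and 15.7%. The U2 snRNA genes had the same share as 5S in replicate 2, with 4 of 6 peaks (66.7%, interval 30.0 to 90.3). All 5S peaks spanned 1 bin, whereas this held for 39 of 46 peaks of the 45S units in replicate 1 and 42 of 51 in replicate 2. A wider peak needs a match over its whole width, and the part of width in these shares was not tested. A same-strand peak in the other replicate was found for 4 of 8 (50.0%, interval 21.5 to 78.5) and 4 of 6 5S peaks (66.7%, interval 30.0 to 90.3), against 24.9% and 18.5% of the peaks outside 5S genes. The 5S values rest on RNA5S7 and RNA5SP74 alone, among 6 positions with a 5S peak in replicate 1 and 4 in replicate 2. Both strands of these genes were counted as separate peaks. The intervals treat all peaks as independent, which such pairs are not, so they do not measure the error of these shares. The difference was not tested because the members were chosen by the same peaks.

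Of all 62700 annotated genes, 74 (0.118%) overlapped a peak in replicate 1 and 89 (0.142%) in replicate 2. The genes of 8 proteins that work with 5S rRNA had no peak in either replicate, which is read as no result about them. These were RPL5 and RPL11, which carry the RNA to the ribosome, RPF2 and RRS1, which dock the 5S particle onto the pre-ribosome, GTF3A, which encodes transcription factor IIIA, MDM2, which the free particle binds, SSB, which encodes the La protein that holds the 3′ ends of new polymerase III transcripts, and RO60, which encodes a protein that binds misfolded 5S rRNA. Annotated genes and copies of other polymerase III transcripts also had 0 peaks in each replicate, namely 680 of 7SL, 301 of 7SK, 1351 of U6 and U6atac, 812 of Y RNA, 10 of vault RNA, 2 of RMRP and 3 of RPPH1. The 530 annotated copies of 5S rRNA had 8 peaks in each replicate, of which 2 in replicate 2 were those in EDA. The 5S members were chosen because they had peaks, so no contrast with these transcripts is drawn. No listed peak had fewer than 7 or 6 tags, and lower signals at these genes would not be seen.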

How the data were processed

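The 2 FSCN1 IP peak lists were analysed. According to the methods, reads were aligned to GRCh38 with HISAT2, unique alignments were kept, PCR duplicates were removed, and peaks were called with ABLIRC and Piranha (annotation Ensembl 104). The input served as background for the peaks, and the methods also screen peaks by abundance against it. Which caller made the lists is not stated. The deposited tags are a signal, the mean read coverage in tags per 50-bp bin, not scaled to library size. The deposited p-values are those of the authors' caller. Library depth is unknown from the lists, and intervals cover counting error only. The Poisson intervals do not account for the lower limit of tags in each list or for the choice of members by their peaks.

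Starts in the lists count from 0, since the exon shares of 9 of 9 5S peaks matched that reading within 0.005 and 2 of 9 matched the other, and coordinates are given from 1. RNA ends were taken from RefSeq, and gene names, strands and other genes from GENCODE 44. Peaks were taken at an overlap of at least 1 bp. Genes named were the members, all other RNA5S genes, other 5S copies with a peak, the nearest outside peak, and lists of 5S partners and polymerase III RNAs. Other short RNA genes were examined after the place of the 5S peaks had been seen. Members and lists were chosen with earlier results of these data known. No groups were compared and no test was made. The base sequences of the RNAs are not reported here.

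Windows were counted exactly on both strands, and the counter recovered 200 of 200 windows planted in a simulated genome. Tools were Python 3.11.15, numpy 2.4.6, pandas 2.3.3, scipy 1.17.1, numba 0.67.0, pysam 0.24.0, Biopython 1.88 and blastn 2.17.0.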

Additional observations from a re-analysis of the deposited data

How the results depend on the processing

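With only peaks of more tags than the list median, 5S peaks numbered 4 in replicate 1 and 3 in replicate 2, and members with a peak numbered 2 in replicate 2 and 4 in either replicate. With only peaks on the strand of the gene, replicate 2 had 3 peaks. With 1 replicate left out, members with a peak ranged from 4 to 6, the former without replicate 1. With each position counted once, the median of replicate 2 was 7.25 tags. With RNA ends of the shorter GENCODE annotation, chosen after seeing the data, the median number of RNA bases in a peak was 36. The other 30 values stayed within 1.5 times the main count, or within the spread between the replicates or the interval of the share. They include the authors' assignments alone, an overlap of at least 25 bp, and other window lengths.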
